A study of Arabidopsis thaliana with 6 samples.

Results

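The xyloglucan endotransglucosylase/hydrolase (XTH) genes of Arabidopsis thaliana, XTH1 to XTH33, were compared between seedlings that overexpressed JcERFVII2, a group VII ethylene response factor gene of Jatropha curcas, and the wildtype. The 33 members were taken by locus as the whole family and not by their expression, although earlier results of these data were known. All 33 were among the 28775 genes counted. MA-Line1 was the homozygous line 1 of 35S:MA-JcERFVII2, in which alanine replaces the cysteine of the N-degron so that the protein is stabilised. MC-Line3 was the homozygous line 3 of 35S:MC-JcERFVII2, which keeps the cysteine and is the wildtype form of the protein. Both lines were made in Col-0, and Col-0 itself was the wildtype. The constitutive CaMV 35S promoter drove both transgenes, and each form was profiled in 1 line, so that line and form cannot be told apart. Whole seedlings of all 3 genotypes were grown in aerobic conditions on vertical plates with 16 h of light at 23 °C and were collected when the light period ended. The labels give their age as 10 d, and the study's text gives a younger age. Poly(A) RNA was sequenced in 2 biological replicate libraries per genotype, and the question was how the overexpressed factor, in either form, changed transcripts of this wall-modifying family without low oxygen.

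XTH proteins act on xyloglucan, the main hemicellulose of the primary wall, which ties cellulose microfibrils together. They cut a xyloglucan chain and join the cut end either to another chain, which lets a wall extend without losing strength, or to water, which shortens the chain. The family is usually divided into group I, group II and group III, and the members linked with hydrolysis are placed in group IIIA. Members differ in the organs and cells in which they are transcribed, and many respond to brassinosteroid, auxin, touch, shade or flooding. TCH4 (XTH22), found as a touch-induced gene, is the best known of them.

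What the members share is the catalytic signature, a stretch of 9 residues that holds the nucleophile glutamate and the acid/base glutamate. It was found by translating the RefSeq coding sequences of TAIR10.1, and is shown here as 27 coding bases from 5′ to 3′ for the members on which the results turn and for 1 member of group IIIA. The capitals mark the codons of the first glutamate, the aspartate and the second glutamate.
XTH4: gacGAGataGACtttGAGttccttgga
XTH9: aacGAAttcGATtttGAGttcttaggg
XTH12: gatGAGattGATttcGAGttcttgggt
XTH13: gatGAAatcGACttcGAGttcttgggt
XTH14: gatGAGattGACttcGAGtttttggga
TCH4 (XTH22): gacGAGataGATttcGAGtttttaggg
XTH23: gacGAGattGACtttGAGttcttggga
XTH26: gatGAGataGACttcGAGttcctagga
XTH31: gatGAGgtcGATatcGAGtttctaggg
XTH33: gacGAGataGACataGAAttgttgggt
The signature was found once in 32 of the 33 members, and XTH11 was the exception. All 32 differed in at least 1 base. The fifth codon coded for phenylalanine in 27 members and for isoleucine in 5 members, XTH29 to XTH33, which include the membrane-anchored XTH33. The first codon coded for aspartate in 31 members and for asparagine in XTH9 alone.

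The libraries held 53084008 to 65271057 counts, of which the members took 0.221 to 0.267%. Values are CPM, a gene's count scaled to the size of its library with edgeR's TMM factors, which ran between 0.920 and 1.06. The floor was set at 3 counts, which corresponds to 0.0443 to 0.0558 CPM, a limit that covers counting error only. The Col-0 replicates stood further apart than those of the lines: among genes over 1 CPM the log2 difference between replicates had an SD of 0.167 for MA-Line1, 0.184 for MC-Line3 and 0.249 for Col-0. JcERFVII2 was not among the genes counted, so the transgene itself gave no check of the labels.

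Transcripts were found for nearly the whole family, but at very unequal levels. Per kb of exon, XTH24 (first described as MERI5), XTH7 and TCH4 had the highest mean levels in all 3 genotypes. XTH24 stood at 409 and 418 CPM per kb in MA-Line1, at 468 and 437 CPM per kb in MC-Line3 and at 601 and 548 CPM per kb in Col-0. It lay above every other member in each library. XTH7 had 271 and 282 CPM per kb in MA-Line1, 257 and 213 CPM per kb in MC-Line3, and 299 and 271 CPM per kb in Col-0. XTH27 and XTH4 followed in Col-0, where their libraries overlapped. The 5 members that led in Col-0 made up 70.3 and 70.0% of the summed level per kb for MA-Line1 and 70.1 and 69.7% for MC-Line3, against 78.2 and 76.0% in Col-0. XTH9 moved up in this order: its mean level per kb had rank 4 for MA-Line1 and rank 5 for MC-Line3, against rank 7 for Col-0. Its libraries overlapped those of XTH27 in both lines and lay below them in Col-0. XTH1, XTH2 and XTH3 were at or under the floor in every library, with 1 count in Col-0 replicate 1, 1 count in MA-Line1 replicate 1 and 2 counts in Col-0 replicate 2, and were not tested. The other 30 members passed the filter on low counts, 8 of group I, 15 of group II and 7 of group III. Summed over all 33, the family reached 2192 and 2254 CPM in MA-Line1 and 2624 and 2390 CPM in MC-Line3, against 2571 and 2330 CPM in Col-0. On this TMM scale MA-Line1 lay below both Col-0 libraries and MC-Line3 overlapped them. As a share of all counts, without TMM, the order was another. The members then took 0.232 and 0.234% in MA-Line1, between the Col-0 values of 0.236 and 0.221%. MC-Line3, at 0.267 and 0.244%, lay above both Col-0 libraries.

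**Figure D1:**
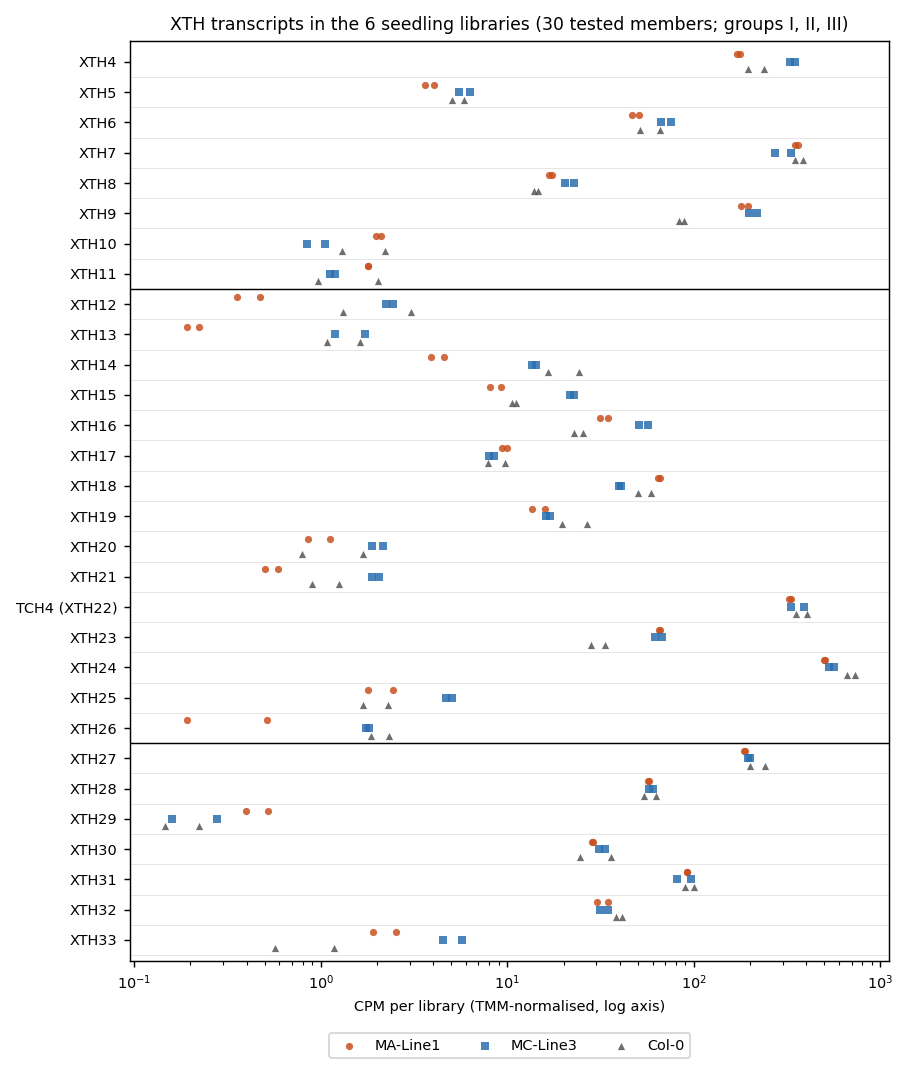
CPM of each of the 30 tested members in the 6 libraries, on a log axis, with lines between groups I, II and III; circles are MA-Line1, squares MC-Line3 and triangles Col-0. XTH12, XTH13, XTH14 and XTH26 lie far to the left in both MA-Line1 libraries, and XTH9, XTH23 and XTH33 lie to the right of Col-0 in both lines.

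In MA-Line1, 4 members of group II, XTH12, XTH13, XTH14 and XTH26, fell by more than 2 on the log2 scale, while XTH9, XTH23, XTH33, XTH16 and XTH18 rose. Of the 30 members tested against Col-0, 5 rose and 11 fell by the quasi-likelihood test of edgeR, with Benjamini-Hochberg adjusted p-values over 21206 genes, and 14 did not pass. That is 53.3% of the members called, beside 37.1% of all genes, with 18% of all genes called higher and 19.1% called lower. At least 2-fold changes were found for 3 members that rose and 4 that fell, beside 7.7% of all genes, 2.94% upward and 4.76% downward. The median log2 fold change of the members was -0.14, and that of all genes was 0.01. MA-Line1 and Col-0 did not overlap in 21 of the 30 members, which is close to the 70.4% of all genes with such separation. With library size alone as the scale, which moved the median of all genes to 0.18, the split became 7 higher and 6 lower. The number of lower members was 6 without MA-Line1 replicate 1 and 7 without MA-Line1 replicate 2, and the number of higher members was 3 without MA-Line1 replicate 1.

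The strongest falls in MA-Line1 were in members known mainly from roots. XTH14 (AT4G25820), a member known from the zone in which root hairs form, had 4.55 and 3.90 CPM in MA-Line1, against 16.5 and 24.1 CPM in Col-0. Both MA-Line1 libraries were low, and the groups were far apart, with a log2 fold change of -2.26 ± 0.17 (SE, n = 2 libraries each, adjusted p = 5.81e-06, edgeR). XTH26 (AT4G28850 on chromosome 4, 14244290 to 14246037 in TAIR10.1), also known from the root hair zone, had 0.517 and 0.191 CPM in MA-Line1, from 35 and 11 counts, against 1.86 and 2.31 CPM in Col-0. Replicate 2 was the lower one, the groups did not overlap, and the log2 fold change was -2.52 ± 0.39 (SE, adjusted p = 0.000549, edgeR), or -3.43 without MA-Line1 replicate 1. XTH12 (AT5G57530) had 0.355 and 0.470 CPM in MA-Line1, from 24 and 27 counts, against 1.32 and 3.05 CPM in Col-0. The Col-0 libraries differed more than 2-fold from each other, yet both were above MA-Line1, and the log2 fold change was -2.42 ± 0.41 (SE, adjusted p = 0.000977, edgeR), or -1.68 without Col-0 replicate 2. XTH13 (AT5G57540) had 0.222 and 0.191 CPM in MA-Line1, from only 15 and 11 counts, against 1.08 and 1.62 CPM in Col-0. These libraries did not overlap either, and its log2 fold change was the most negative of the family at -2.69 ± 0.41 (SE, adjusted p = 0.00053, edgeR). The calls of these 4 genes held in all 16 alternatives, the test against a 1.5-fold change included.

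Markers of root hairs moved in the same comparison, in which 19.1% of all genes were called lower. The marker list was written with earlier results of these data known. Of the 6 markers listed, COBL9, RSL4, PRP3, EXPA7 and EXPA18 fell in MA-Line1 and RHD6 did not pass, with values of 0.636 and 0.191 CPM in MA-Line1 and 0.837 and 1.02 CPM in Col-0. PRP3, a proline-rich wall protein of root hairs, had 2.11 and 2.63 CPM in MA-Line1, against 8.39 and 11.4 CPM in Col-0. Its fall, at -2.07 ± 0.18 on the log2 scale (SE, adjusted p = 1.5e-05, edgeR), was the largest of the list. Summed over the 6 markers, the level was 6.34 and 5.97 CPM in MA-Line1 and 18.3 and 20.2 CPM in MC-Line3, against 17.8 and 23.2 CPM in Col-0, and no marker was at 0 in any library. The list had a median log2 fold change of -1.46 for MA-Line1, and of -0.03 for MC-Line3, for which 0 of the 6 were called by edgeR's quasi-likelihood test, 0 had an unadjusted p under 0.05, and 0 were called by DESeq2. The count of 5 became 3 without MA-Line1 replicate 2. These are bulk libraries, in which fewer cells of a type and less RNA per cell cannot be told apart. What part root hair number had in the fall of the 4 XTH members was not tested.

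**Figure D2:**
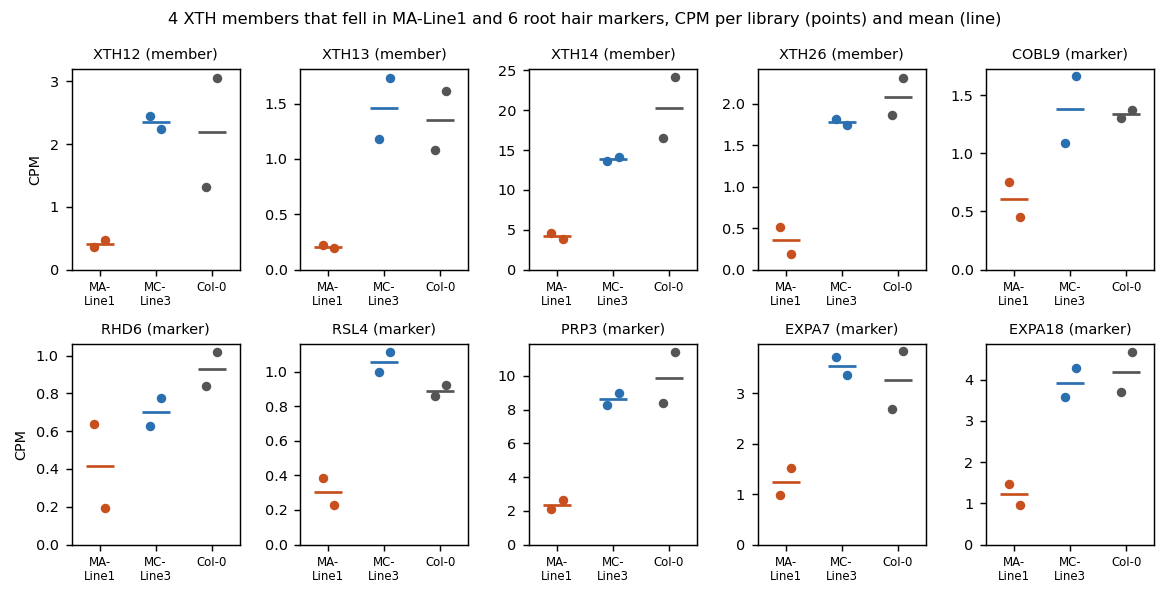
CPM per library (points) and mean of the 2 libraries (line) for 4 XTH members and 6 root hair markers, each panel with its own axis from 0; groups run from MA-Line1 over MC-Line3 to Col-0. In the 4 XTH panels both MA-Line1 points lie below every MC-Line3 and Col-0 point, and RHD6 is the panel in which the MA-Line1 and MC-Line3 points overlap.

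The other large change in MA-Line1 was a rise of XTH9, XTH23 and XTH33. XTH9 (AT4G03210 on chromosome 4, 1415617 to 1417444), known from shoot apices and growing internodes, had 179 and 196 CPM in MA-Line1, against 88.2 and 82.7 CPM in Col-0. Both replicates were about 2-fold above Col-0, with a log2 fold change of 1.13 ± 0.08 (SE, adjusted p = 4.69e-06, edgeR). XTH23 (XTR6, AT4G25810), a close relative of TCH4, had 65 and 65.7 CPM in MA-Line1, against 33.6 and 28.2 CPM in Col-0. It too was high in both replicates, with a log2 fold change of 1.08 ± 0.09 (SE, adjusted p = 1.16e-05, edgeR). XTH33 (AT1G10550 on chromosome 1, 3479066 to 3481041), whose protein is anchored in the plasma membrane, had 2.53 and 1.91 CPM in MA-Line1, against 1.17 and 0.566 CPM in Col-0. The groups did not overlap and the log2 fold change was 1.37 ± 0.32 (SE, adjusted p = 0.00648, edgeR), but the call was lost without MA-Line1 replicate 1, and the value was 1.98 without Col-0 replicate 1.

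The remaining calls in MA-Line1 were below 2-fold. XTH16 rose by 0.46 ± 0.09 and XTH18, tied to growth of the primary root, by 0.25 ± 0.08 on the log2 scale (SE). Falls were called for XTH21, also known from root growth, at -0.96 ± 0.32, XTH19 at -0.66 ± 0.14, XTH5 at -0.51 ± 0.16 and XTH24 at -0.47 ± 0.08. XTH15, XTH4 and XTH32 had log2 fold changes of -0.33, -0.32 and -0.30. The calls of XTH4, XTH5, XTH15, XTH18, XTH21 and XTH32 were each lost without at least 1 library. Among the members that did not pass, log2 fold changes lay between -0.31 for XTH20 and 0.25 for XTH8 and XTH11, apart from XTH29. XTH29 had 0.399 and 0.522 CPM in MA-Line1, from 27 and 30 counts, against 0.223 and 0.145 CPM in Col-0. Its groups did not overlap, but the log2 fold change of 1.32 ± 0.55 (SE) had an adjusted p of 0.0849 in edgeR's quasi-likelihood test, and it passed in edgeR's likelihood ratio and exact tests and with library size alone as the scale.

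In MC-Line3, XTH33 rose 5.94-fold, and XTH25, XTH9, XTH16, XTH23 and XTH15 rose 2-fold or more, while no member fell that far. Against the same Col-0 libraries, 9 members rose and 6 fell by edgeR's quasi-likelihood test, and 15 did not pass. The share of members called was 50%, beside 31.2% of all genes, with 14.5% of all genes called higher and 16.7% called lower. All 6 changes of at least 2-fold were rises, where 4.96% of all genes changed that far, 1.33% upward and 3.63% downward. The median log2 fold change was 0.09 for the members and 0.01 for all genes, and the groups did not overlap in 19 members, beside 64.6% of all genes. The split of calls was 10 higher and 2 lower with library size alone, which put the median of all genes at 0.14. Without MC-Line3 replicate 1 the lower members numbered 3, and without MC-Line3 replicate 2 they numbered 1.

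XTH33 had 5.70 and 4.52 CPM in MC-Line3, against 1.17 and 0.566 CPM in Col-0. Both MC-Line3 libraries were well above Col-0, with a log2 fold change of 2.57 ± 0.31 (SE, adjusted p = 0.000162, edgeR), or 3.16 without Col-0 replicate 1. XTH25 (XTR3, AT5G57550) had 4.70 and 5.04 CPM in MC-Line3, against 1.69 and 2.28 CPM in Col-0. The replicates of MC-Line3 were close together, and the log2 fold change was 1.29 ± 0.22 (SE, adjusted p = 0.00157, edgeR). XTH9 had 218 and 197 CPM in MC-Line3, against 88.2 and 82.7 CPM in Col-0, a log2 fold change of 1.28 ± 0.08 (SE, adjusted p = 2.03e-06, edgeR). XTH23 had 67.1 and 61.6 CPM in MC-Line3, against 33.6 and 28.2 CPM in Col-0, a log2 fold change of 1.06 ± 0.09 (SE, adjusted p = 1.64e-05, edgeR). Neither gene overlapped with Col-0, and each call in this group of 6 rises held in all 16 alternatives.

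XTH15 (XTR7, AT4G14130), a shade-induced member, and XTH16 are near relatives, and both rose in MC-Line3. XTH16 (AT3G23730) had 56.6 and 50.5 CPM in MC-Line3, against 25.4 and 22.7 CPM in Col-0, a log2 fold change of 1.15 ± 0.09 (SE, adjusted p = 9.82e-06, edgeR). XTH15 had 21.6 and 22.8 CPM in MC-Line3, against 10.6 and 11.1 CPM in Col-0, a log2 fold change of 1.03 ± 0.10 (SE, adjusted p = 4.67e-05, edgeR). Both were separated from Col-0 in each library. Smaller rises were called for XTH21 at 0.87 ± 0.30, XTH4 at 0.64 ± 0.09 and XTH8 at 0.60 ± 0.10 on the log2 scale (SE). The 6 falls were in XTH14 at -0.55 ± 0.16, XTH19 at -0.49 ± 0.14, XTH18 at -0.45 ± 0.09, XTH24 at -0.35 ± 0.08, XTH7 at -0.28 ± 0.10 and XTH32 at -0.27 ± 0.09. Of these, the calls of XTH7, XTH14, XTH19, XTH21, XTH24 and XTH32 were lost without at least 1 library. XTH12, XTH13 and XTH26 did not pass in MC-Line3, with log2 fold changes of 0.09, 0.11 and -0.23 and 95% intervals of -0.68 to 0.86, -0.64 to 0.86 and -0.97 to 0.51. XTH10 had 1.05 and 0.848 CPM in MC-Line3, against 1.30 and 2.20 CPM in Col-0, and narrowly failed (log2 fold change -0.89 ± 0.31 SE, adjusted p = 0.0501, edgeR).

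**Figure D3:**
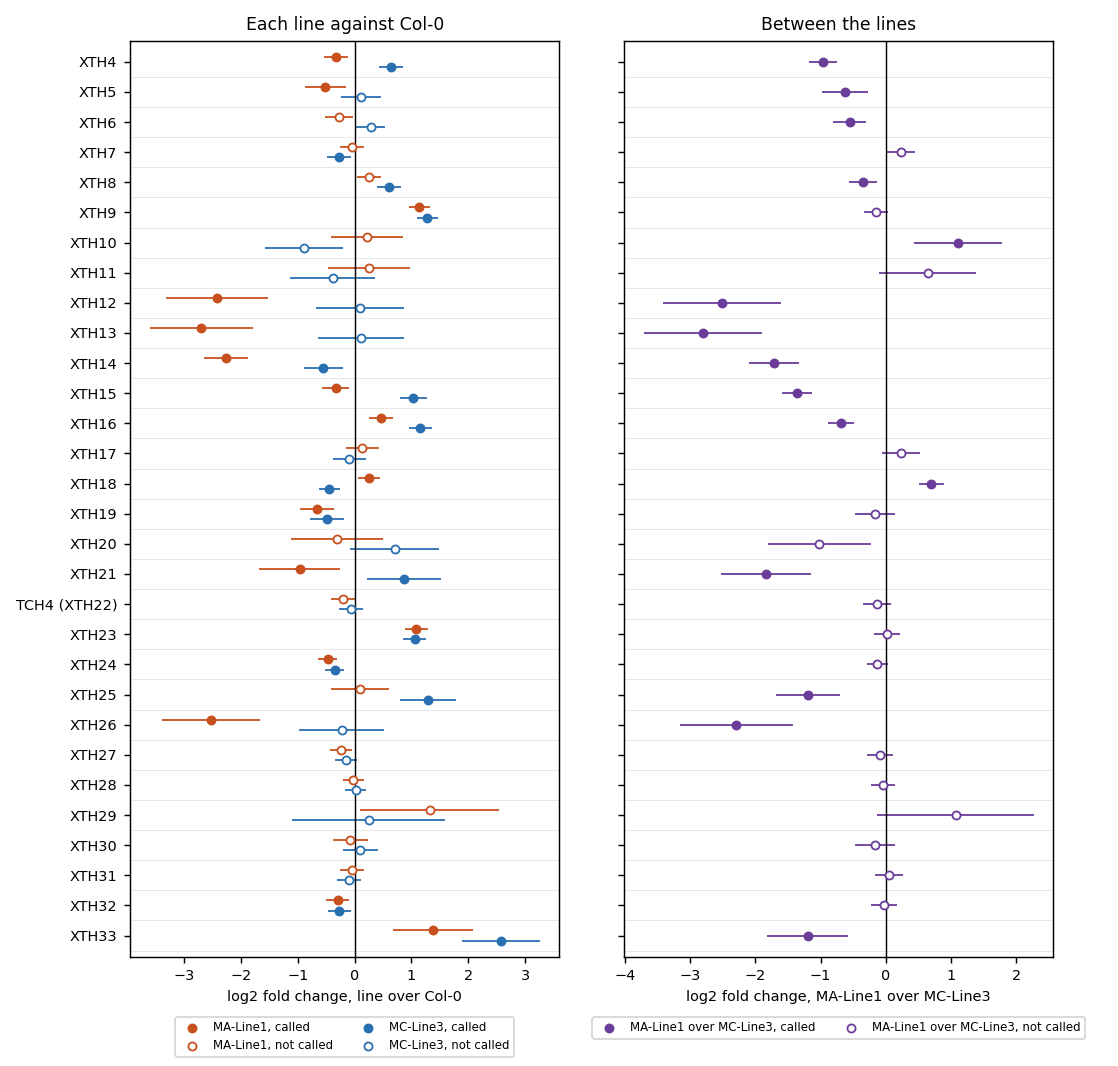
Log2 fold changes of the 30 tested members with 95% intervals from edgeR's quasi-likelihood fit, on the left for MA-Line1 and MC-Line3 over the shared Col-0 libraries and on the right for MA-Line1 over MC-Line3; filled points have an adjusted p under 0.05. XTH9 and XTH23 lie near 1 in both lines, and XTH12, XTH13, XTH14 and XTH26 lie below -2 for MA-Line1 over Col-0 and between -2.80 and -1.72 for MA-Line1 over MC-Line3.

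The comparisons of the lines with Col-0 share the Col-0 libraries, and their calls are given here only side by side. XTH9, XTH16, XTH23 and XTH33 were higher in both, XTH14, XTH19, XTH24 and XTH32 were lower in both, XTH18 was higher in MA-Line1 and lower in MC-Line3, and XTH4, XTH15 and XTH21 were lower in MA-Line1 and higher in MC-Line3. Over the 21206 genes tested, 1960 were higher in both, 2197 lower in both, 200 higher in MA-Line1 and lower in MC-Line3, and 46 the reverse. The lines were also compared with each other, in the same fit of 6 libraries, where Col-0 enters only through the estimate of the spread. In that comparison 2 members were higher and 13 lower in MA-Line1 by edgeR's quasi-likelihood test, and 15 did not pass. This is 50% of the members, beside 20% of all genes, of which 11.3% were higher and 8.68% lower. At least 2-fold differences were found for 1 member in the upward and 8 in the downward direction, beside 5.52% of all genes, 3.31% upward and 2.21% downward. The median was -0.17 for the members and -0.01 for all genes, and the lines did not overlap in 26 of the 30 members, beside 62.1% of all genes. Log2 fold changes of the 15 members that did not pass ran from -1.02 for XTH20 to 1.07 for XTH29. With Col-0 left out of the fit, 3 members were higher and 14 lower, with XTH7 and XTH20 added.

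XTH12, XTH13, XTH14 and XTH26 were lower in MA-Line1 than in MC-Line3 as well, a call made for 8.68% of all genes. XTH13 had 0.222 and 0.191 CPM in MA-Line1 and 1.18 and 1.73 CPM in MC-Line3, and XTH12 had 0.355 and 0.470 CPM in MA-Line1 and 2.44 and 2.24 CPM in MC-Line3. Their log2 fold changes were -2.80 ± 0.41 (SE, adjusted p = 0.00071, edgeR) and -2.51 ± 0.41 (SE, adjusted p = 0.00135, edgeR). XTH26 had 0.517 and 0.191 CPM in MA-Line1 and 1.81 and 1.75 CPM in MC-Line3, with a log2 fold change of -2.29 ± 0.39 (SE, adjusted p = 0.00185, edgeR), or -3.20 without MA-Line1 replicate 1. For these 3 genes the MC-Line3 libraries lay inside or next to the Col-0 range and those of MA-Line1 far below it. XTH14 had 4.55 and 3.90 CPM in MA-Line1 and 13.6 and 14.2 CPM in MC-Line3, with a log2 fold change of -1.72 ± 0.17 (SE, adjusted p = 5.56e-05, edgeR). The root hair markers differed here too, with 5 of 6 lower in MA-Line1 and a median of -1.60, a count that was 3 without MA-Line1 replicate 2 and 3 without MC-Line3 replicate 2.

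A second set separated the lines because MC-Line3 was high, MA-Line1 was low, or both. XTH15 had 8.04 and 9.22 CPM in MA-Line1 and 21.6 and 22.8 CPM in MC-Line3, with Col-0 between them at 10.6 and 11.1 CPM. The difference of -1.37 ± 0.11 on the log2 scale (SE, adjusted p = 9.3e-06, edgeR) was called in all 16 alternatives. XTH21 (AT2G18800) had 0.591 and 0.504 CPM in MA-Line1 and 2.05 and 1.87 CPM in MC-Line3, with Col-0 again between at 0.893 and 1.24 CPM. Its log2 fold change was -1.83 ± 0.31 (SE, adjusted p = 0.00186, edgeR). XTH4 (AT2G06850), an abundant member first described as EXGT-A1, had 170 and 177 CPM in MA-Line1 and 350 and 326 CPM in MC-Line3, around Col-0 values of 238 and 196 CPM. The difference of -0.97 ± 0.10 on the log2 scale (SE, adjusted p = 4.82e-05, edgeR) was just short of 2-fold.

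XTH25 and XTH33 were also lower in MA-Line1 than in MC-Line3. XTH25 had 2.44 and 1.79 CPM in MA-Line1 and 4.70 and 5.04 CPM in MC-Line3, with MA-Line1 overlapping Col-0, and a log2 fold change of -1.20 ± 0.22 (SE, adjusted p = 0.00301, edgeR). XTH33 had 2.53 and 1.91 CPM in MA-Line1 and 5.70 and 4.52 CPM in MC-Line3, both above Col-0, and a log2 fold change of -1.20 ± 0.28 (SE, adjusted p = 0.012, edgeR). The XTH33 call between the lines was lost without MA-Line1 replicate 2 and without MC-Line3 replicate 1. Differences under 2-fold were called for XTH16 at -0.69, XTH5 at -0.63, XTH6 at -0.55 and XTH8 at -0.35. The calls of XTH5, XTH6 and XTH8 were each lost without at least 1 library, and that of XTH8 also with library size alone.

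XTH10 and XTH18 were the members with higher levels in MA-Line1 than in MC-Line3. XTH10 (AT2G14620) had 2.1 and 1.98 CPM in MA-Line1 and 1.05 and 0.848 CPM in MC-Line3, with Col-0 spread over 1.30 and 2.20 CPM. The log2 fold change was 1.10 ± 0.31 (SE, adjusted p = 0.0269, edgeR), and the call was lost without any 1 of the 4 libraries of the lines. XTH18 (AT4G30280) had 64.1 and 65.4 CPM in MA-Line1 and 39.4 and 40.5 CPM in MC-Line3, with Col-0 between at 50.0 and 58.8 CPM, and its log2 fold change was 0.70 ± 0.09 (SE, adjusted p = 0.00021, edgeR). XTH9 and XTH23, which rose in both lines, did not pass between them. Their log2 fold changes were -0.15 for XTH9 and 0.02 for XTH23, with 95% intervals of -0.33 to 0.03 and -0.18 to 0.22.

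TCH4 (XTH22, AT5G57560), the touch-induced member, was among the 3 most abundant and passed in no comparison. It had 325 and 332 CPM in MA-Line1 and 390 and 333 CPM in MC-Line3, against 406 and 351 CPM in Col-0. On the TMM scale, Col-0 replicate 1 was the highest library, MA-Line1 lay below both Col-0 libraries, and MC-Line3 overlapped Col-0. The log2 fold change was -0.20 ± 0.10 in MA-Line1 against Col-0 (SE, 95% interval -0.42 to 0.01, adjusted p = 0.117, edgeR). In MC-Line3 against Col-0 it was -0.07 ± 0.10 (SE, 95% interval -0.28 to 0.14, adjusted p = 0.636, edgeR). Between the lines it was -0.14 ± 0.10 (SE, 95% interval -0.35 to 0.07, adjusted p = 0.374, edgeR). Only the first of these became a call in any alternative, without Col-0 replicate 2. The log2 fold change of that first comparison ran from -0.30 to -0.03 over the 16 alternatives. Among the other touch genes, TCH2, which encodes a calmodulin-like protein, fell in both lines, with -0.61 ± 0.10 for MA-Line1 and -1.43 ± 0.11 for MC-Line3 on the log2 scale (SE), and TCH1, a calmodulin gene, rose in MA-Line1 at 0.33 ± 0.08, a call lost without either MA-Line1 replicate. TCH3, a calmodulin-like gene, did not pass in MA-Line1 (0.03 ± 0.07) and fell in MC-Line3 at -0.42 ± 0.07.

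Calls were found in all groups of the family, and differences between the groups were not tested. In MA-Line1, where 37.1% of all genes were called, 3 of the 15 members of group II rose and 8 fell, group I had 1 rise and 2 falls among 8, and group III had 1 rise and 1 fall among 7. In MC-Line3, where 31.2% of all genes were called, 5 members of group II rose and 4 fell, 3 of group I rose and 1 fell, and 1 of group III rose and 1 fell. In group III, XTH27 to XTH31 passed in no comparison. The log2 fold changes of XTH28, XTH30 and XTH31 ran between -0.17 and 0.10, XTH27 had -0.24 in MA-Line1, and XTH29 had the 1.32 given above. In group IIIA, the log2 fold changes over Col-0 of XTH31 were -0.05 for MA-Line1 and -0.10 for MC-Line3, and those of XTH32 were -0.30 for MA-Line1 and -0.27 for MC-Line3.

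Several members are neighbours in the genome, and some neighbours changed together while others did not. On chromosome 4, XTH23 (13128394 to 13129927) and XTH14 (13130291 to 13131860), both on the forward strand of TAIR10.1, are separated by 363 bases. In MA-Line1, XTH23 was higher by 1.08 and XTH14 was lower, at -2.26 on the log2 scale. Also on chromosome 4, XTH24, XTH18 and XTH19 lie on the reverse strand with 5161 and 1500 bases between them. There XTH18 rose in MA-Line1 (0.25) while XTH24 (-0.47) and XTH19 (-0.66) fell, whereas in MC-Line3 all 3 fell, XTH24 at -0.35, XTH18 at -0.45 and XTH19 at -0.49 on the log2 scale. On chromosome 5, XTH12, XTH13, XTH25 and TCH4 occupy positions 23300321 to 23308680 on the reverse strand, with 1097, 686 and 565 bases between them. XTH12 and XTH13 fell in MA-Line1 alone, XTH25 rose in MC-Line3 alone, and TCH4 did not pass. XTH1 and XTH2, 3139 bases apart on chromosome 4, were at or under the floor.

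**Figure D4:**
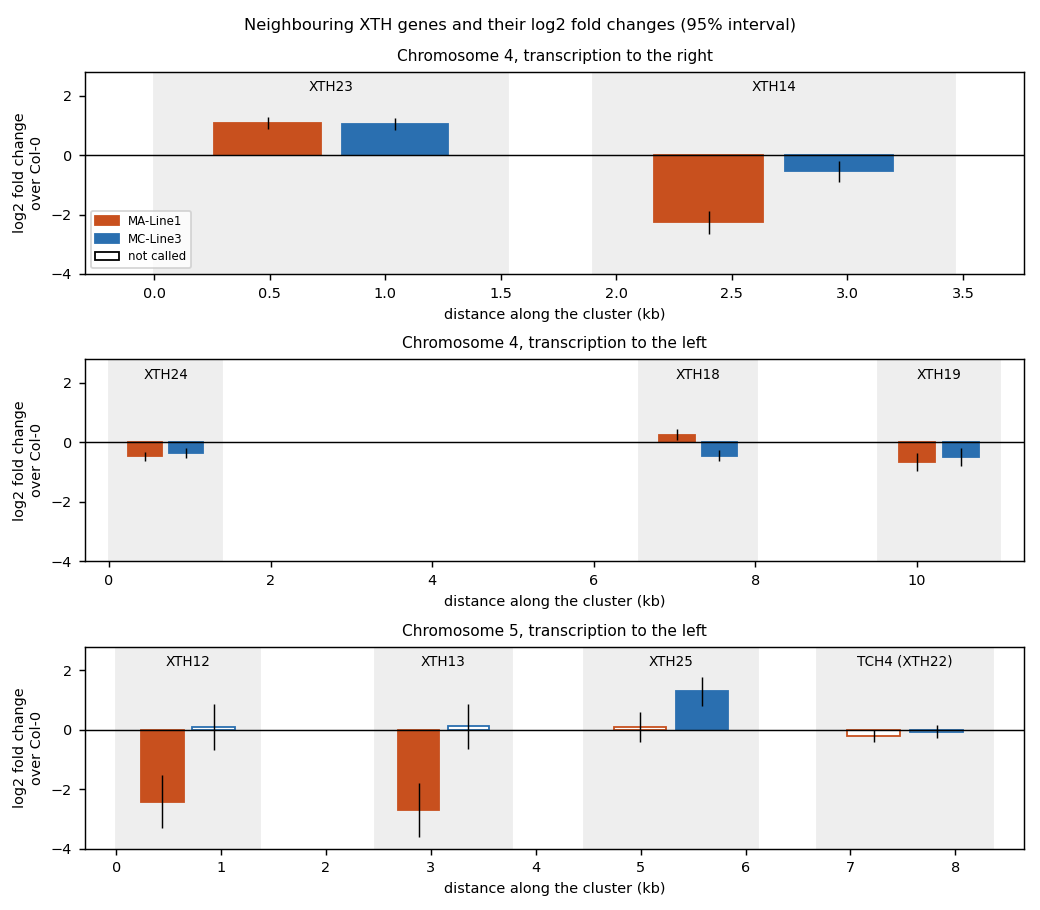
Log2 fold changes over Col-0 with 95% intervals for XTH genes that lie within 10 kb of each other, drawn at their distance along each cluster in kb; grey bands are the genes, and open bars were not called. XTH23 and XTH14 have bars on opposite sides of 0 in MA-Line1, and XTH12 and XTH13 have long downward bars for MA-Line1 and short open bars for MC-Line3.

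The 250 bases before the annotated start are shown for XTH23 and XTH14, the neighbours that moved in opposite directions, from TAIR10.1 chr4:13128144-13128393 and chr4:13130041-13130290 on the forward strand. Capitals mark matches to the motifs searched.
XTH23: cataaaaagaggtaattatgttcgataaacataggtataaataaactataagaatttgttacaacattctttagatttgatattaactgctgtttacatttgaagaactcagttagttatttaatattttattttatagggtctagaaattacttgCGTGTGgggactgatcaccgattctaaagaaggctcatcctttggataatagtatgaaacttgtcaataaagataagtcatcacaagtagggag
XTH14: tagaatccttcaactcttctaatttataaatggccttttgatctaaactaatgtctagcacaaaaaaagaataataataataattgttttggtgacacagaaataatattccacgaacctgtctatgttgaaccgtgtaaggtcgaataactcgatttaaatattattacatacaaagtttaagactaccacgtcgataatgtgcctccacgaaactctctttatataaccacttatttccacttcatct
The same windows are shown for XTH12 and XTH13, which fell together, from chr5:23301690-23301939 and chr5:23304096-23304345 on the reverse strand.
XTH12: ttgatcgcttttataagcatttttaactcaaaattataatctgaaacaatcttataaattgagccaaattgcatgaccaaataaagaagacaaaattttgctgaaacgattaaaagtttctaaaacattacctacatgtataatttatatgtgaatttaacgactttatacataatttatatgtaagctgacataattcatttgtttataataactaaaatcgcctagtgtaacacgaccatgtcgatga
XTH13: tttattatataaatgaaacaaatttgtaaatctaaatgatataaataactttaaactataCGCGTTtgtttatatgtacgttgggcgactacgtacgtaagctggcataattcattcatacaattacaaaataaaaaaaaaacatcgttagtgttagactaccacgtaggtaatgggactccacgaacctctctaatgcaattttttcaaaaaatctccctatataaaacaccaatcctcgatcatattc
In all, 5 motifs were searched on both strands of these windows in all 33 members and in 27443 protein-coding genes. The GCC box GCCGCC, an element known to bind ethylene response factors, was in 0 members and in 1.87% of all windows. At so small a share, 0 among 33 windows of 250 bases does not set the members apart. The G-box CACGTG was in 0 members and 6.49% of all windows. The BZR1 element, CGTGTG or CGTGCG, was in 4 members, XTH2, XTH8, XTH23 and XTH25, and in 6.71% of all windows. The match in XTH23 begins 94 bases before the start and that in XTH25 begins 147 bases before it. The W box, TTGACC or TTGACT, was in 6 members and 28.4% of all windows. The CGCG element CGCGTT was in 3 members, XTH13 among them, and 2.59% of all windows. The G-box and the BZR1 element share letters, so their matches can overlap, and a match only describes the sequence.

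Close relatives could in principle share reads. The coding sequences of XTH12 and XTH13 are 89.4% identical, those of XTH18 and XTH19 87.6%, XTH15 and XTH16 80.5% and TCH4 and XTH23 79.9%. Of all 50-base words of the member's exons, the share also found elsewhere was 7.82% for XTH21, 1.77% for XTH19, 1.7% for XTH18, 0.305% for XTH26, 0.182% for XTH17 and 0 for the others. The counts of XTH21 could be affected the most, but this share is not a count error, and the size of any such error was not measured. XTH15 overlaps AT4G14120 on the opposite strand by 382 bases, and the kit did not mark strand. AT4G14120 had 0.630 to 1.44 CPM over the 6 libraries and was called in no comparison, while XTH15 had 8.04 to 22.8 CPM.

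Other genes of the wall and of related pathways were counted from lists. For scale, 18% of all genes were called higher and 19.1% lower in MA-Line1, and 14.5% and 16.7% in MC-Line3. EXPA7 and EXPA18, which fell in MA-Line1, are in both the alpha-expansin list and the root hair list. Of 13 xyloglucan synthesis genes, CSLC4, which encodes the glucan synthase of the xyloglucan backbone, rose in MA-Line1 (0.41 ± 0.07 on the log2 scale, SE) and XXT1, a xylosyltransferase, fell (-0.21 ± 0.07). The fall in MA-Line1 was not called without either MA-Line1 replicate, without MC-Line3 replicate 1, with the replicate block or with library size alone, where 3 genes rose and 0 fell. In MC-Line3, 0 rose and 2 fell, XXT1 at -0.41 ± 0.07 the larger, and 1 fell without either MC-Line3 replicate. Without Col-0 replicate 2, 2 genes of the list rose in each line. Of the 3 genes for trimming enzymes, 2 fell in MA-Line1, and AXY8, an apoplastic fucosidase, rose in MC-Line3 (0.29 ± 0.08). The falls in MA-Line1 numbered 0 with library size alone, in a fit of the groups compared, and without any 1 of the libraries other than Col-0 replicate 2, without which they numbered 3. The rise of AXY8 was not called in a fit of the groups compared, without either MC-Line3 replicate or without Col-0 replicate 2. Of 17 alpha-expansin genes tested, 1 rose and 9 fell in MA-Line1 (median log2 fold change -0.35), whereas 3 rose and 4 fell in MC-Line3 (median 0.11), with 1 rise left without either MC-Line3 replicate. EXPA16 rose in both lines, by 1.48 ± 0.26 for MA-Line1 and by 0.92 ± 0.26 for MC-Line3. EXPA17 was at or under the floor in MA-Line1 with 0.030 and 0.017 CPM, against 0.521 and 0.307 CPM in Col-0. EXPA8 had the largest fall in MC-Line3, at -0.95 ± 0.08. Among 9 cellulose synthase genes, CESA1 fell in MA-Line1 (-0.39 ± 0.09), but not without MA-Line1 replicate 1, and 0 were called in MC-Line3 by edgeR's quasi-likelihood test, with 1 at an unadjusted p under 0.05 and 1 called by DESeq2. Of 7 brassinosteroid genes, 1 rose and 5 fell in MA-Line1, and 2 rose and 2 fell in MC-Line3; the falls in MA-Line1 numbered 3 without MA-Line1 replicate 1, MA-Line1 replicate 2 or Col-0 replicate 1. The biosynthetic gene ROT3 had the largest fall in MA-Line1 (-0.58 ± 0.08), and DWF4, the rate-limiting step of the hormone's synthesis, rose in MC-Line3 (0.77 ± 0.13). With library size alone as the scale, the median of the xyloglucan synthesis list was 0.10 for MA-Line1 and 0.09 for MC-Line3, where the TMM scale gave -0.07 and -0.03. The median of the cellulose synthases changed sign likewise, to 0.06 for MA-Line1 and 0.11 for MC-Line3, and for MC-Line3 so did those of the brassinosteroid genes (0.01) and the root hair markers (0.10).

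Markers of the root and the shoot were compared in the same way, since a whole seedling holds both. Of all genes, 18% were called higher and 19.1% lower in MA-Line1, and 14.5% and 16.7% in MC-Line3. The 6 root markers summed to 100 and 105 CPM in MA-Line1 and 126 and 129 CPM in MC-Line3, against 132 and 136 CPM in Col-0. The largest part of the MA-Line1 difference was in PHO1, with 28.9 and 29.2 CPM in MA-Line1 against 59.8 and 64.9 CPM in Col-0. CO2 went the other way, with 28.5 and 28.1 CPM in MA-Line1 against 15.5 and 13.4 CPM in Col-0. In MA-Line1, 1 rose and 3 fell, PHO1, a phosphate exporter of the root stele, the most (-1.10 ± 0.08), and in MC-Line3, 3 rose and 2 fell, with 1 rise left without MC-Line3 replicate 2. With library size alone as the scale, 3 root markers rose and 0 fell in MC-Line3. The 6 shoot markers summed to 34610 and 37705 CPM in MA-Line1 and 38902 and 40709 CPM in MC-Line3, against 48057 and 46293 CPM in Col-0. Of these, 4 were lower in MA-Line1 and 3 lower in MC-Line3. With library size alone, 3 shoot markers were lower in MA-Line1, and 1 was higher and 2 lower in MC-Line3. No marker of these lists was at 0 in any library. What part the shares of root and shoot had in the changes of the XTH members was not tested.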

How the data were processed

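Libraries were made by the authors from whole seedlings with a poly(A) kit that does not mark strand. Per the study's methods and the labels, reads were cleaned with the FASTX toolkit and Trimmomatic, aligned to TAIR10 with TopHat2 and counted with HTSeq; the strand setting is not given in the sources used here. The deposited values are raw counts per gene, and 0 columns were left unmapped. The MC-Line3 columns carry another line number than the labels and were assigned by construct and replicate number. Genes were filtered with edgeR's filterByExpr, which left 21206, scaled by TMM and fitted together over the 6 libraries with edgeR 4.0.16 (R 4.3.3) by glmQLFit and glmQLFTest. P-values were adjusted over all genes tested by Benjamini-Hochberg, and 0.05 was the threshold. The scripts were tested on simulated data. The SE is the absolute log2 fold change over the root of F. With 2 libraries per group, precision is limited by the replicates. For members with few counts, such as XTH13 with 15 and 11 counts in MA-Line1, counting error limits it too.

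Members and gene lists were chosen with earlier results of these data known. Values in every library were given for members called with a log2 fold change of 1 or more in size in at least 1 comparison and for TCH4; other members were given by fold change or range, and in each list the called genes with the largest rise and fall could be named. Per-library values of XTH4, XTH18 and XTH29, of XTH10 in MC-Line3 and of RHD6 were added after they were seen. Alternatives were DESeq2 size factors, library size alone, no filter, at least 10 counts in every library, the likelihood ratio, exact and DESeq2 1.42.0 Wald tests, a fit of the groups compared, a replicate block, a test against a 1.5-fold change, and each library left out. Identities, windows and words came from TAIR10.1.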

Additional observations from a re-analysis of the deposited data

Results flagged for a closer look

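XTH4, XTH15, XTH18 and XTH21 stood out because they were called in opposite directions in the lines and also differed between the lines by edgeR's quasi-likelihood test. Of the 21206 genes tested, 200 were called higher in MA-Line1 and lower in MC-Line3, and 46 the reverse. Their log2 fold changes of MA-Line1 over MC-Line3 were -0.97 for XTH4, -1.37 for XTH15, 0.70 for XTH18 and -1.83 for XTH21. For all 4 genes the call in MA-Line1 against Col-0 was lost without at least 1 library, and for XTH21 the call in MC-Line3 against Col-0 was lost as well. Between the lines, XTH4, XTH15 and XTH21 were called in all 16 alternatives and XTH18 in 15, the exception being the test against a 1.5-fold change.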

How the results depend on the processing

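Over 90 results and 1437 alternative values, 1293 kept their direction and side of the threshold, 106 lost the call, 38 gained one and 0 reversed, although 36 values that were not called changed sign. Against a 1.5-fold change, the members called higher and lower were 2 and 4 in MA-Line1 against Col-0, 6 and 0 in MC-Line3 against Col-0, and 0 and 7 in MA-Line1 against MC-Line3. With library size alone, the lower members were 6 in MA-Line1 and 2 in MC-Line3. With 1 library left out, the counts of higher and lower members ran from 3 to 6 and 6 to 11 in MA-Line1 against Col-0, from 8 to 11 and 1 to 7 in MC-Line3 against Col-0, and from 1 to 3 and 10 to 14 between the lines. The count of all genes called, 7864 in MA-Line1, 6618 in MC-Line3 and 4242 between the lines, was 1340, 825 and 946 against a 1.5-fold change. Without MA-Line1 replicate 1 it was 4379 in MA-Line1 and 2124 between the lines, and without MC-Line3 replicate 2 it was 3536 in MC-Line3 and 2306 between the lines.

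The counts gave no sign that the replicate numbers pair the libraries. Same-numbered deviations correlated at -0.06 between MA-Line1 and MC-Line3, -0.06 between MA-Line1 and Col-0 and 0.02 between MC-Line3 and Col-0. The study's text does not say whether same-numbered replicates were grown together. With the replicate block, 5 members were higher and 10 lower in MA-Line1, 8 higher and 5 lower in MC-Line3, and 2 higher and 14 lower between the lines. At 0.0443 to 0.0558 CPM for 3 counts, nothing can be said of XTH1, XTH2 and XTH3.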
